A study of Thermothelomyces thermophilus with 14 samples.

Results

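The genes described here are 5 loci of the thermophilic fungus Myceliophthora thermophila, of 9110 in the count table. Their messenger RNA was high in plate cultures with xylobiose, alone or mixed with cellobiose, and low in plate cultures without it. The 5 loci are MYCTH_39555, MYCTH_116553, MYCTH_2066457, MYCTH_2308362 and MYCTH_100068. Members were chosen on measured values. The lowest of the 4 libraries with xylobiose had to reach 10 CPM (read counts scaled to a common library size, with TMM factors for library composition). It also had to be at least 4 times the highest of the 6 plate libraries without it, with that highest value set to at least 0.5 CPM. In all, 10 genes met these thresholds, and the rule sets 5 of them aside: MYCTH_89603, MYCTH_114107, MYCTH_49824, MYCTH_112050 and MYCTH_56237. The reference table names the members by locus tag only, with no product, so no function is given for them here.

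All libraries came from 1 wild-type strain, ATCC 42464, with no genetic change, and RNA was taken from mycelium 4 h after pregrown mycelium was moved into Vogel's salts. In 24-well plates, 5 mL cultures were given cellobiose at 2% (G2), xylobiose at 2% (X2), 2% of each disaccharide (G2X2), 1% glucose with 1% xylose (GX) or no sugar (NoCarbon2). In flasks, 100 mL cultures held 2% xylan (Xylan) or 1% Avicel, a microcrystalline cellulose, with 1% xylan (XA). There were 2 libraries per group, 14 in all, with 17992946 to 25254924 counts each. Nothing in the labels ties the replicates to separate cultures, and p-values therefore measure a spread between libraries that may be technical. A single library per sample covers a whole culture, so fewer cells with the RNA and less RNA per cell cannot be told apart.

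Xylan is a plant polymer with a backbone of xylose units, and xylobiose is the disaccharide that xylanases release from it, as cellobiose is the disaccharide released from cellulose. In filamentous fungi related to this one, such sugars are taken up by transporters and split to monosaccharides inside the cell. Genes for xylan breakdown are controlled there by a zinc-cluster activator known as XlnR, XYR1 or XLR-1, and are often held down by glucose through the repressor CreA or CRE-1. A mixture of disaccharides therefore asks whether genes that answer to xylobiose still do so when cellobiose, a source of glucose, is present.

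The members are taken in order of their mean CPM with xylobiose; CPM is not scaled to transcript length, so this does not rank transcripts. For MYCTH_39555 the level was 1625 and 3150 CPM in the X2 libraries and 745 and 895 CPM in the G2X2 libraries. On plates without xylobiose it was 49.3 and 61.5 CPM in NoCarbon2, 92.5 and 77.1 CPM in G2, and 71.4 and 63.6 CPM in GX. In the flasks it stood between those plate groups, at 320 and 372 CPM in Xylan and 651 and 677 CPM in XA. The order of its 7 group means was X2, G2X2, XA, Xylan, G2, GX, NoCarbon2, and no neighbours in that order overlapped.

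MYCTH_116553 stood at 1760 and 2900 CPM in X2 and at 430 and 589 CPM in G2X2. The 6 plate libraries without xylobiose lay between 30.8 and 45.6 CPM, and NoCarbon2, G2 and GX overlapped there. Flask levels were 392 and 302 CPM in Xylan and 1003 and 899 CPM in XA. XA thus ranked second among its group means (951 ± 73.4 CPM, SD, n = 2), above G2X2 (509 ± 113 CPM, SD, n = 2), with no overlap.

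MYCTH_2066457 had the widest margin under the rule, a lowest value with xylobiose 140-fold above the highest plate library without it. It was close to silent without carbon, with 9 and 16 counts, or 0.369 and 0.623 CPM, in the NoCarbon2 libraries. It stood at 3.10 and 3.25 CPM in G2, at 2.70 and 1.82 CPM in GX, at 876 and 2355 CPM in X2 and at 454 and 662 CPM in G2X2. In the flasks it was at 126 and 267 CPM with Xylan and at 1179 and 999 CPM with XA. Its X2 and XA libraries overlapped, while all other neighbours in the order of its group means were apart.

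MYCTH_2308362 was the member nearest to the threshold, at 7.17-fold. It stood at 725 and 1604 CPM in X2 but at 275 and 268 CPM in G2X2. Both flask groups lay above that mixture, at 1046 and 963 CPM in Xylan and 776 and 623 CPM in XA. Plate libraries without xylobiose held 27.6 to 37.3 CPM, with GX and NoCarbon2 overlapping. X2 and Xylan overlapped at the top of its order.

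MYCTH_100068 differed from the other members in the order of its groups. It was at 107 and 170 CPM in X2 and at 205 and 536 CPM in G2X2, so that the mixture held more than xylobiose alone. The XA flasks, at 549 and 440 CPM, had its highest mean and overlapped the mixture, while the Xylan flasks held 47.2 and 101 CPM. On plates without xylobiose it had 120 and 32 counts in NoCarbon2 (4.92 and 1.25 CPM), 9 and 3 counts in G2 (0.437 and 0.135 CPM) and 8 and 5 counts in GX (0.348 and 0.190 CPM). G2 and GX overlapped, below NoCarbon2.

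**Figure D1:**
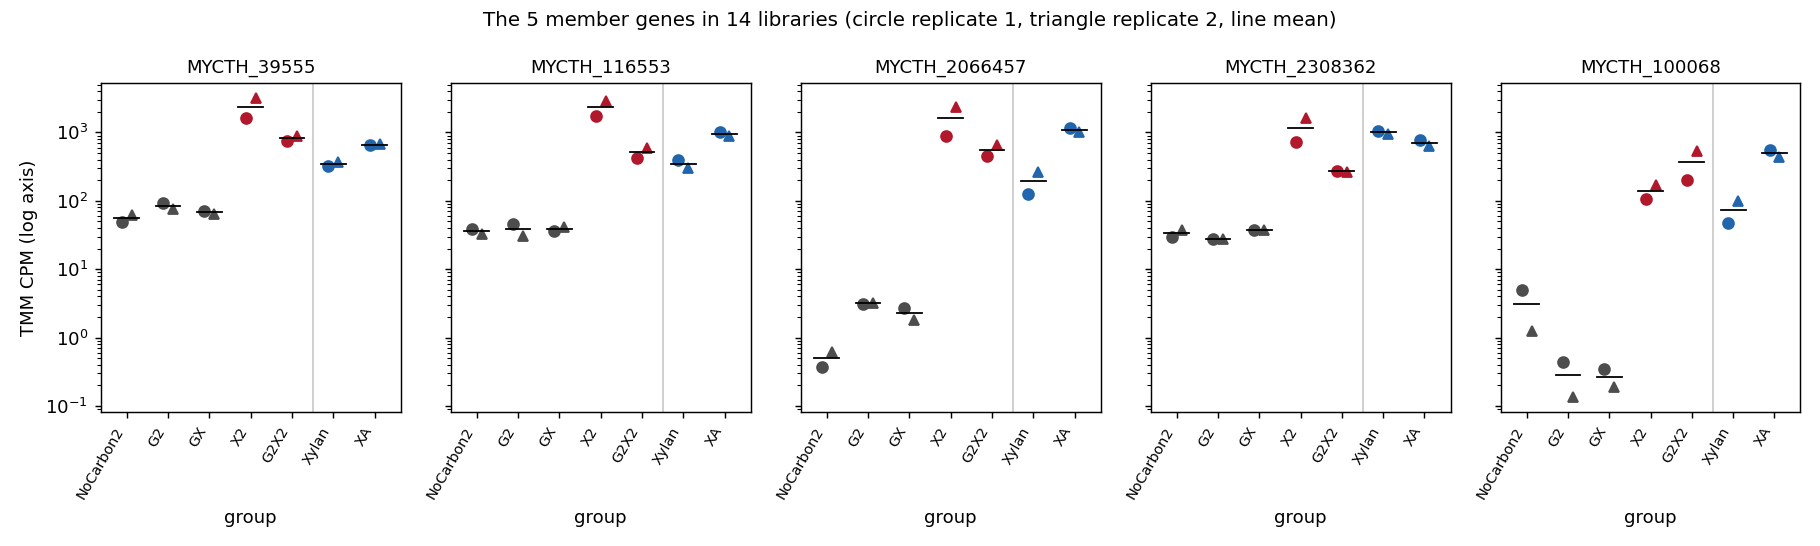
TMM-scaled CPM on a log axis for each of the 5 member genes (panels) in the 14 libraries, by group; circles are replicate 1, triangles replicate 2 and lines the mean of 2. The X2 and G2X2 libraries (red) lie above the 6 plate libraries without xylobiose (grey) in each panel, which the rule set, and the flask libraries (blue), which the rule did not use, also lie above the grey points.

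Ratios of group means are given as a description, without the floor of the rule, which compared single libraries. X2 over NoCarbon2 means ran from 34.8-fold for MYCTH_2308362 to 3256-fold for MYCTH_2066457. G2X2 over G2 means ran from 9.67-fold for MYCTH_39555 to 1296-fold for MYCTH_100068. The top ratio of each divides by a mean under the 0.5 CPM floor: 0.496 CPM for MYCTH_2066457 in NoCarbon2 and 0.286 CPM for MYCTH_100068 in G2. Under the rule these members stood at 140 and 21.8-fold. By the fold of the rule, lowest library over highest, the lowest 3 members stood at 7.17, 8.05 and 9.42-fold. Of the genes set aside, MYCTH_114107 and MYCTH_56237 stood at 4.93 and 5.65-fold by it. The nearest genes outside were MYCTH_43671 at 3.96-fold, MYCTH_2295344 at 3.56-fold and MYCTH_40885 at 3.49-fold. MYCTH_43671 stood at 2445 and 4563 CPM in X2 and at 296 to 318 CPM in the G2 libraries and GX replicate 1 and 272 CPM in GX replicate 2, against 67.5 and 85.2 CPM in NoCarbon2. Together the 5 members took 0.437% and 0.746% of all counts in the X2 libraries, 0.204% and 0.289% in G2X2, and 0.0139% to 0.0194% in the 6 plate libraries without xylobiose.

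**Figure D2:**
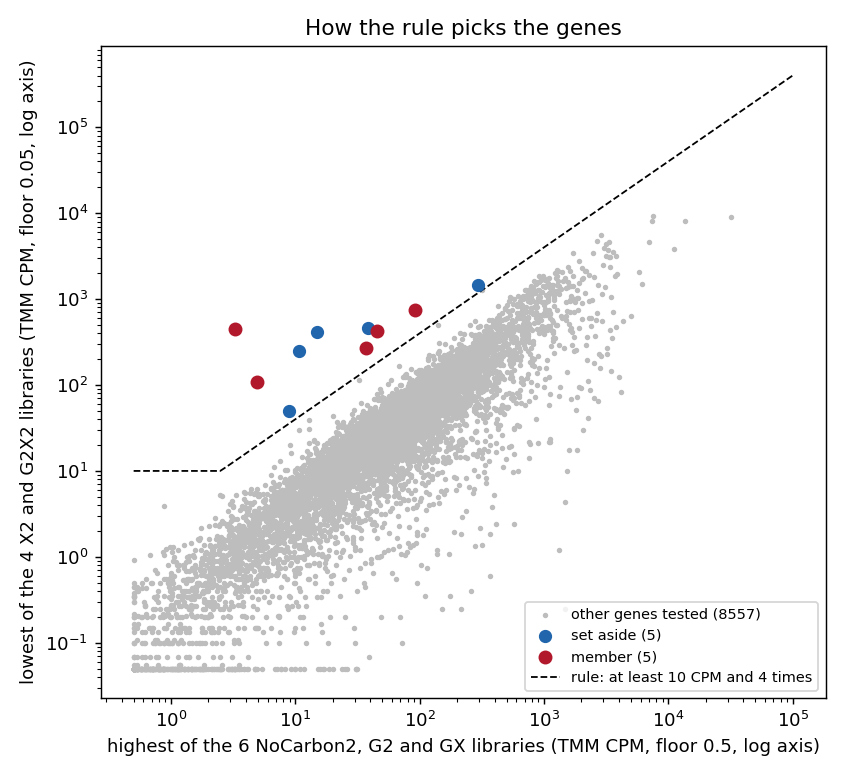
Each point is 1 of 8567 genes tested: the highest of the 6 NoCarbon2, G2 and GX libraries (x) against the lowest of the 4 X2 and G2X2 libraries (y), both in TMM-scaled CPM on log axes with floors of 0.5 and 0.05 CPM. The dashed line is the rule, at least 10 CPM and 4 times; the 5 members (red) and the 5 genes set aside (blue) lie above it, MYCTH_2066457 farthest from it.

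The flask libraries did not enter the rule. They set xylan alone against xylan diluted with cellulose, the total staying at 2%. With Avicel beside xylan, 4 of the 5 members rose and 0 fell, where 31.9% of all 8567 genes tested were called and 14.8% were called higher and 17.1% lower (edgeR quasi-likelihood test, Benjamini-Hochberg adjusted p under 0.05 over all genes). The median log2 fold change was 1.45 over the members and 0.01 over all genes tested. In each of the 5 members the XA and Xylan libraries did not overlap, which held for 76.0% of all genes tested.

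The largest rise was that of MYCTH_100068, from 74.1 ± 38.0 to 495 ± 77.1 CPM (SD, n = 2), a log2 fold change of 2.74 ± 0.58 (SE, edgeR adjusted p = 0.00444). MYCTH_2066457 rose by 2.47 ± 0.45 (edgeR adjusted p = 0.00176) and MYCTH_116553 by 1.45 ± 0.28 (edgeR adjusted p = 0.00225). These 3 calls held in each of 12 alternative fits, which included leaving out each of the 4 flask libraries. MYCTH_39555 rose by 0.94 ± 0.27 (edgeR adjusted p = 0.0186), but this call was lost without any 1 of the 4 flask libraries (edgeR adjusted p 0.0692 to 0.0934, log2 fold change 0.86 to 1.04). MYCTH_2308362 was lower in XA, at 699 ± 108 against 1005 ± 58.6 CPM (SD, n = 2), a difference of -0.52 with a 95% interval from -1.14 to 0.10 that was not called (edgeR adjusted p = 0.179). With only the 4 flask libraries in the fit that difference was called (-0.52, edgeR adjusted p = 0.0332). It was -0.25 with plain library totals (edgeR adjusted p = 0.467) and -0.37 without XA replicate 2 (edgeR adjusted p = 0.518), and not called in either.

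No flask without a carbon source was analysed here, so induction by the polymers has no control of its own, and vessel, volume and substrate cannot be told apart between flasks and plates. As levels, each member was at least 3 times higher in every flask library than in the highest of the 6 plate libraries without xylobiose. The lowest flask library stood 3.46-fold (MYCTH_39555) to 38.7-fold (MYCTH_2066457) above that plate value. Only 44 of 8567 genes tested, 0.514%, met this condition with at least 10 CPM; they include the 5 members and 3 of the genes set aside. The rule had already held those low plate values down in the members, so this share is a description and supports nothing about them. Against xylobiose on plates, the Xylan flask means were 12.2% (MYCTH_2066457) to 86.3% (MYCTH_2308362) of the X2 means, and the XA means were 27.8% (MYCTH_39555) to 357% (MYCTH_100068).

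On plates, the mixture was set against xylobiose alone. X2 held 2% xylobiose and G2X2 held 2% of each disaccharide, so cellobiose and total sugar rose together and cannot be told apart. Of the 5 members, 4 fell and 0 rose, where 30.0% of all genes tested were called, 15.4% lower and 14.6% higher. The median log2 fold change was -1.54 over the members and 0.01 over all genes tested. All 5 members had G2X2 libraries apart from the X2 libraries, as had 62.2% of all genes tested. The rule required both groups to be high, which leaves out genes with a deep loss but does not set the direction of this difference. The count therefore describes these 5 genes and not all genes that answer to xylobiose.

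MYCTH_116553 fell by 2.19 on the log2 scale (SE 0.28, edgeR adjusted p = 0.000267) and MYCTH_2308362 fell by 2.10 (SE 0.30, edgeR adjusted p = 0.00044), to 21.9% and 23.3% of their X2 means. MYCTH_39555 fell by 1.54 (SE 0.27, edgeR adjusted p = 0.00165) and MYCTH_2066457 fell by 1.53 (SE 0.43, edgeR adjusted p = 0.0202), to 34.4% and 34.5%. MYCTH_100068 was at 267% of its X2 mean in the mixture. Its difference of 1.42 ± 0.55 (SE), with a 95% interval from 0.21 to 2.62, was not called (edgeR adjusted p = 0.0718). It was called with no scaling beyond library totals (1.74, edgeR adjusted p = 0.0261) and without G2X2 replicate 1 (1.95, edgeR adjusted p = 0.043), and not in the other 10 alternatives. The difference was 0.56 without G2X2 replicate 2 (edgeR adjusted p = 0.514) and 1.14 without X2 replicate 1 (edgeR adjusted p = 0.237).

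X2 replicate 2 was the higher X2 library for each member, by 1.59-fold (MYCTH_100068) to 2.69-fold (MYCTH_2066457). Over the 6538 genes with a mean of at least 10 CPM in X2, the median ratio of replicate 2 to replicate 1 was 0.999. In that library the 10 most abundant genes took 12.4% of counts, against 8.51% in X2 replicate 1. Without X2 replicate 2 the log2 change of MYCTH_2066457 was -0.64 and no longer called (edgeR adjusted p = 0.279), nor was it without G2X2 replicate 1 (-1.29, edgeR adjusted p = 0.136). Without X2 replicate 2, MYCTH_39555 changed by -0.97, MYCTH_116553 by -1.78 and MYCTH_2308362 by -1.41, and these 3 falls were still called.

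The change from Xylan to XA in the flasks and that from X2 to G2X2 on the plates were then set against each other. This comparison was added after the values had been seen, and its X2 and G2X2 libraries had been used by the rule. The rule leaves out genes with a deep loss in the mixture, so the counts and p-values are read only with that limit. The log2 change from Xylan to XA exceeded that from X2 to G2X2 for 4 of the 5 members past the threshold, where 34.9% of all genes tested were called in this difference and 17.0% were called higher. It was 4.01 ± 0.62 (SE, edgeR adjusted p = 0.000871) for MYCTH_2066457, 3.65 ± 0.40 (SE, edgeR adjusted p = 0.000124) for MYCTH_116553 and 2.48 ± 0.38 (SE, edgeR adjusted p = 0.000799) for MYCTH_39555. These 3 genes rose from Xylan to XA and fell from X2 to G2X2. For MYCTH_2308362 the difference was 1.58 ± 0.41 (SE, edgeR adjusted p = 0.0106), and for MYCTH_100068 it was 1.32 ± 0.77 (SE, edgeR adjusted p = 0.202). The pattern was not particular to the members. Of the 5 genes set aside, 4 were also called higher, with a median difference of 3.40 against 2.48 in the members. Avicel took the place of part of the xylan, whereas cellobiose was added on top of the full xylobiose, and vessel and volume differed too. These differences cannot be told apart.

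**Figure D3:**
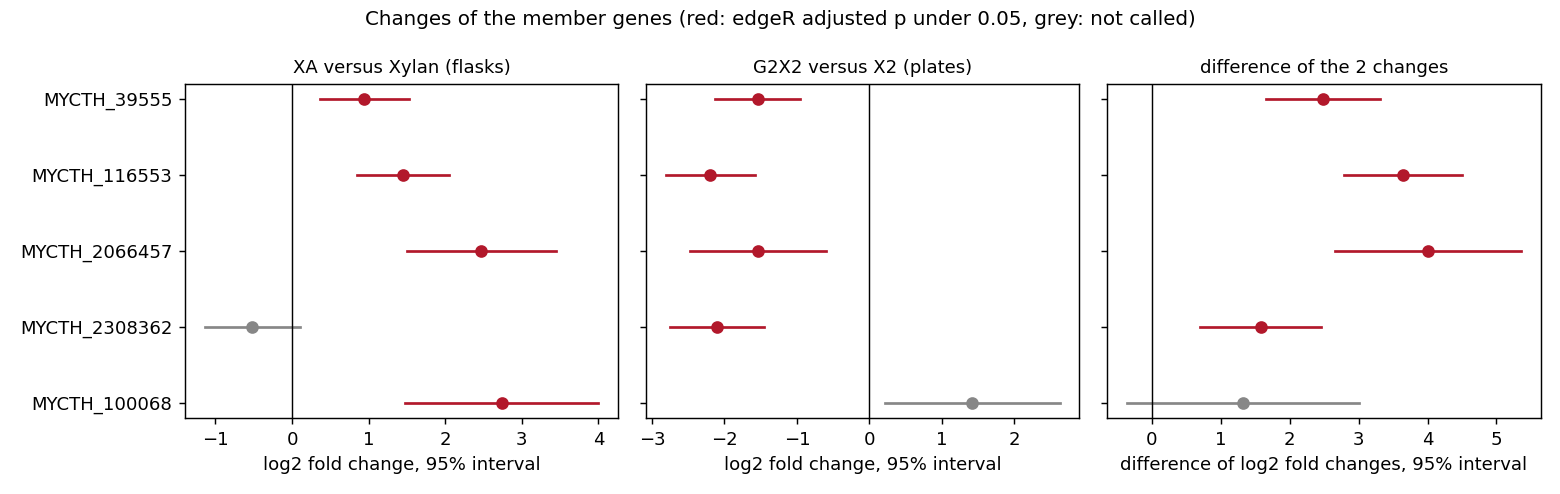
Log2 fold change of each member with its 95% interval for XA versus Xylan in flasks (left), G2X2 versus X2 on plates (middle) and the difference of these changes (right); red marks an edgeR adjusted p under 0.05. MYCTH_39555, MYCTH_116553 and MYCTH_2066457 lie to the right of zero on the left and to the left of zero in the middle, while MYCTH_100068 lies to the right in each panel and is called in the left panel alone.

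Members and genes that the rule left out overlapped in how much of their X2 level the mixture held. On X2 alone, 27 genes passed the thresholds against NoCarbon2, G2 and GX, and 10 of them, the members and the genes set aside, passed in G2X2 as well. The G2X2 mean was 21.9% to 34.5% of the X2 mean in 4 members and 267% in MYCTH_100068. In the 5 genes set aside it was 5.95% (MYCTH_89603) to 91.5% (MYCTH_112050), with a median of 62.5%. In the 17 genes that passed with xylobiose alone it was 2.52% to 70.6%, with a median of 21.3%, and 8 of the 17 were at or above the lowest member. In the members, the lowest X2 library was 17.6 to 270-fold above the highest plate library without xylobiose, with a median of 21.8-fold. In the 17 it was 4.39 to 24.2-fold, with a median of 7.56-fold, so the ranges overlapped. The genes set aside, which also passed in G2X2, ran from 5.01-fold (MYCTH_114107) to 149-fold (MYCTH_89603). Of the 17, 5 were under 10 CPM in a G2X2 library, and of these MYCTH_89872 did reach 4 times there (4.45-fold). The rule used these values, so they are a description.

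**Figure D4:**
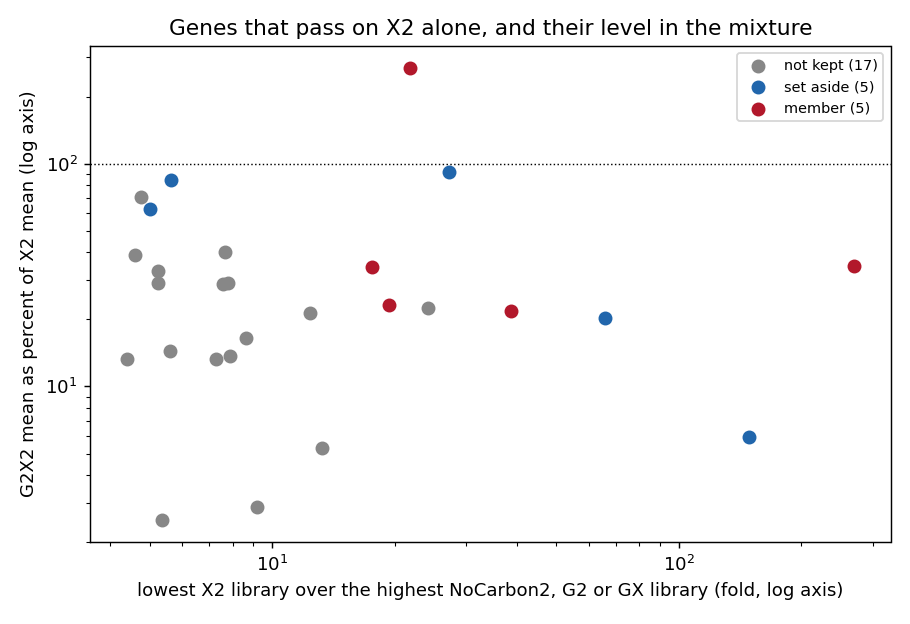
The 27 genes that pass the thresholds on X2 alone: the lowest X2 library over the highest NoCarbon2, G2 or GX library (x, fold) against the G2X2 mean as a percent of the X2 mean (y), both on log axes; the dotted line is 100%. The members (red) and the 17 genes that do not pass in the mixture (grey) overlap in height, between 21.9% and 34.5%, and MYCTH_100068 alone lies above 100%.

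Among the low groups, MYCTH_2066457 and MYCTH_100068 moved in opposite directions. The rule used all 6 of these libraries: it capped their highest value, which limits how far a member can rise here but does not set which low group is higher, and the counts are read only with that limit. With cellobiose against no carbon, MYCTH_2066457 rose by 2.66 ± 0.60 (SE, edgeR adjusted p = 0.00656) and MYCTH_100068 fell by 3.42 (SE 0.89, edgeR adjusted p = 0.0144), so that 1 of the 5 members rose and 1 fell, where 26.5% of all genes tested were called, 12.3% higher and 14.2% lower. With glucose and xylose against no carbon, MYCTH_2066457 rose by 2.16 ± 0.61 (SE, edgeR adjusted p = 0.0231) and MYCTH_100068 fell by 3.51 (SE 0.88, edgeR adjusted p = 0.0124), again 1 up and 1 down, where 24.0% of all genes tested were called, 10.9% higher and 13.1% lower. The comparisons share the NoCarbon2 libraries. The other 3 members were not called in either comparison, with log2 differences between -0.27 and 0.61.

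These low-level calls rested on few counts and on single libraries. Without NoCarbon2 replicate 1 no member was called in either comparison: MYCTH_2066457 changed by 2.34 with cellobiose and 1.84 with the monosaccharides, and MYCTH_100068 by -2.12 and -2.21 (edgeR adjusted p 0.0600 to 0.154). The fall of MYCTH_100068 was also not called without G2 replicate 2 (-2.80), GX replicate 1 (-3.97) or GX replicate 2 (-3.12). The rise of MYCTH_2066457 with the monosaccharides was not called without NoCarbon2 replicate 2 (2.59) or GX replicate 1 (1.86).

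The 5 genes set aside give the context of the xylobiose response. Published locus assignments, recalled here and not given in the reference table, place 4 of them as xylanase genes (MYCTH_89603, MYCTH_49824, MYCTH_112050, MYCTH_56237) and MYCTH_114107 as the disaccharide transporter gene cdt-2. In XA versus Xylan, 3 of the 5 rose and 0 fell, with a median log2 fold change of 1.40, where 14.8% of all genes tested were called higher and 17.1% lower. In G2X2 versus X2, 0 rose and 2 fell, with a median of -0.68, where 14.6% of all genes tested were called higher and 15.4% lower. MYCTH_49824 stood at 1438 CPM in X2, 292 CPM in G2X2, 525 CPM in Xylan and 1490 CPM in XA. It rose from Xylan to XA (edgeR adjusted p = 0.0254) and fell from X2 to G2X2 (log2 fold change -2.30 ± 0.47, edgeR adjusted p = 0.00416), as 3 members did. The others set aside did not share both changes. MYCTH_89603 fell from X2 to G2X2 by 4.07 on the log2 scale and was not called in XA versus Xylan (-0.67). MYCTH_112050 and MYCTH_114107 rose from Xylan to XA but were not called in G2X2 versus X2 (-0.13 and -0.68). MYCTH_56237 was called in neither (0.04 and -0.24).

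The 5 members were not neighbours in the gene order of the ASM22609v1 assembly, where the closest pair, MYCTH_2308362 and MYCTH_2066457, was 650 coding genes apart. Of the 20 coding genes within 2 places of a member, 15 passed the filter on low counts. With xylobiose against no carbon 5 of these 15 rose and 2 fell, where 38.6% of all genes tested were called, 19.1% higher and 19.5% lower. In XA versus Xylan 1 rose and 2 fell, where 14.8% of all genes tested were called higher and 17.1% lower. In G2X2 versus X2 0 rose and 3 fell, where 14.6% of all genes tested were called higher and 15.4% lower. One neighbour was also high with xylobiose: MYCTH_96047, 2 places from MYCTH_2308362, stood at 536 and 890 CPM in X2, 250 and 164 CPM in G2X2, with a mean of 3.18 CPM in NoCarbon2. It stayed outside the members because GX held 68.7 and 68.6 CPM. The gene between them, MYCTH_2308360, was lower with xylobiose than without carbon (27.3 against 57.6 CPM, log2 fold change -1.08, edgeR adjusted p = 0.0131).

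Likeness was measured as the root-mean-square difference, in log2 CPM over the 7 group means, between a gene's centred profile and the mean profile of the members, by a rule chosen after the values were seen. The genes set aside MYCTH_112050 (0.50) and MYCTH_49824 (0.78) were nearer to the mean profile than any member, of which MYCTH_116553 (0.80) was nearest and MYCTH_100068 (1.76) farthest. Among other genes the nearest were MYCTH_89872 (1.20), MYCTH_2301869 (1.36), MYCTH_96047 (1.42) and MYCTH_43671 (1.47). MYCTH_89872 had X2 libraries at 21.1 and 29.2 CPM, flask libraries at 38.3 to 76.0 CPM and the plate libraries without xylobiose at 0.328 to 0.871 CPM, and it missed the rule because G2X2 held 3.88 and 7.43 CPM. It rose in XA versus Xylan (0.80 ± 0.27, SE, edgeR adjusted p = 0.0356) and fell in G2X2 versus X2 (-2.15 ± 0.29, SE, edgeR adjusted p = 0.000316).

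**Figure D5:**
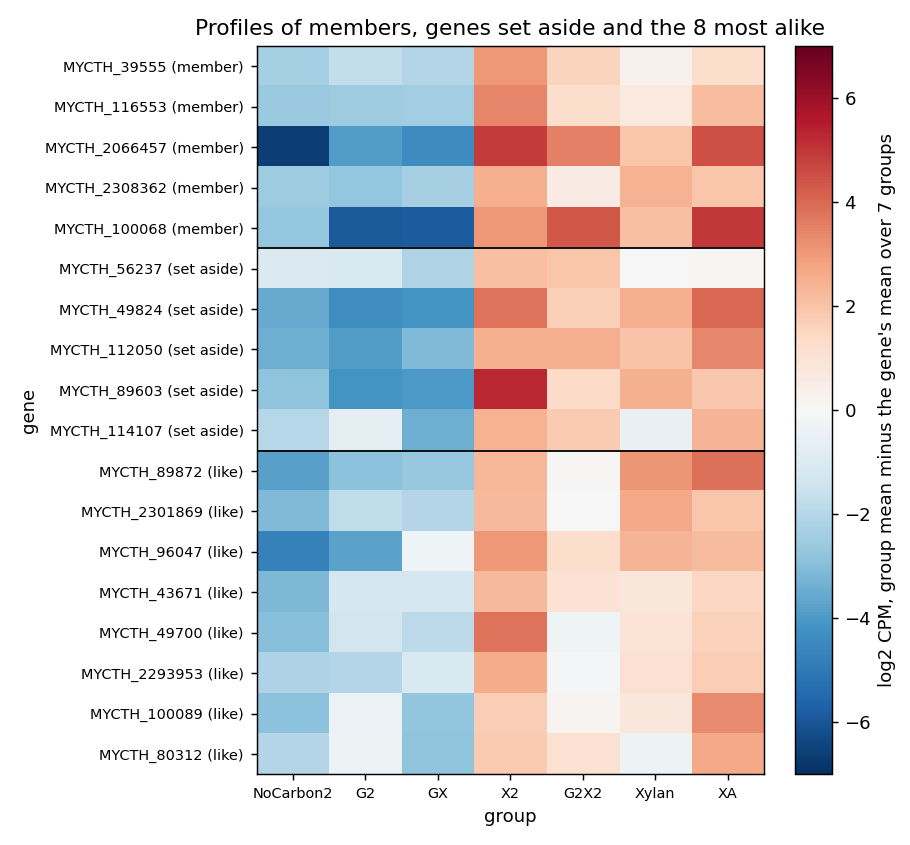
Group mean log2 CPM of each gene minus its mean over the 7 groups (colour, red above and blue below the gene's own mean) for the 5 members, the 5 genes set aside and the 8 other genes nearest to the members' mean profile. The members share low NoCarbon2, G2 and GX columns, which the rule set. MYCTH_100068 is highest in XA, and MYCTH_2308362 is higher in Xylan than in G2X2.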

How the data were processed

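RNA sequencing of 14 libraries was used as the authors deposited it, as raw counts of reads per gene. The tools listed, per the submitters' processing notes, were TopHat2 2.0.8b and HTSeq 0.13.5. Neither the build nor the strandedness is given in the sources used here. Reads of overlapping or antisense genes and of close paralogs may therefore be mixed, and no coordinates are given. Groups and replicate numbers came from the titles; the XA group is headed AX in the table. Of 9110 identifiers, 9087 matched a locus tag of the ASM22609v1 table, all 5 members among them.

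Counts were filtered with filterByExpr (minimum count 10), leaving 8567 genes, the 5 members included, and scaled by TMM in edgeR 4.0.16 (R 4.3.3). One quasi-likelihood fit over all libraries had a mean for each of the 7 groups. The 4 tests planned were XA versus Xylan, G2X2 versus X2, and G2 and GX versus NoCarbon2, all two-sided, with calls at an adjusted p under 0.05. SE and 95% intervals come from the F statistic. The model was also run on simulated data, but the outcome is not given here and no call rests on it. The members, lists and tests were chosen with earlier results of these data known. All 5 members are named, with the 5 genes set aside and the 3 nearest outside the rule; genes alike or neighbouring were chosen after their values were seen; protein signatures and promoter motifs, also planned, were not analysed here. Alternatives were other scalings, no filter, DESeq2 1.42.0, fewer libraries and a replicate block.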

Additional observations from a re-analysis of the deposited data

Results flagged for a closer look

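For 4 members, the change when cellulose was present in flasks differed from the change when cellobiose was added on plates, where 34.9% of all genes tested were called in this difference. Of the 5 genes set aside by the rule, 4 were also called higher in it. The log2 change from Xylan to XA less that from X2 to G2X2 was 2.48 for MYCTH_39555 (0.94 and -1.54), 3.65 for MYCTH_116553 (1.45 and -2.19), 4.01 for MYCTH_2066457 (2.47 and -1.53) and 1.58 for MYCTH_2308362 (-0.52 and -2.10). The difference itself was tested with edgeR in 1 model over all libraries. Its X2 and G2X2 libraries had been used by the rule, and the comparison was added after the values had been seen. Vessel, volume, substrate form and total sugar differ between the 2 experiments and cannot be told apart. Groups of 2 libraries were too small to look for single outlying libraries.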

How the results depend on the processing

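The 5 members were the same genes under each scaling tried, with a minimum of 20 CPM, with 6 times in the rule, and on leaving out any 1 of the 10 plate libraries, where the number ranged from 5 to 6; with 3 times in the rule there were 8. The count of 4 members called in XA versus Xylan was 3 on leaving out any 1 flask library, and that of 4 in G2X2 versus X2 from 3 to 4. In the difference of those changes 4 members were called in all 15 alternatives, and the smallest margin was that of MYCTH_2308362 (0.88 to 2.03). In G2 versus NoCarbon2 the count of 2 ranged from 0 to 2 without single libraries, and in GX versus NoCarbon2 from 0 to 1, and it was 0 with only the contrasted groups, where 2 members had an adjusted p of 0.0515 and 0.0565. MYCTH_116553, not called in G2 versus NoCarbon2 (0.10), ranged from -0.21 (without G2 replicate 1) to 0.36 (without G2 replicate 2), and was -0.0092 without NoCarbon2 replicate 2. Same-numbered libraries did not deviate together (correlation of deviations -0.13 to 0.18 over pairs of groups), so the numbers were not taken as pairs; with a replicate block 4, 4, 2 and 2 members were called in the 4 planned comparisons, as without it and as with DESeq2. The difference of changes could not be fitted within 1 vessel. Plain library totals, an alternative added after the data were seen, moved the median of all genes by 0.27 in XA versus Xylan and 0.29 in G2X2 versus X2, and the share of calls that were higher from 46.5% to 71.3% and from 48.7% to 73.8%; the directions of the members did not change. With 3 to 120 counts per library for MYCTH_100068 in the low groups, depth limits its low values.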
